A study of Homo sapiens with 6 samples.

Results

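The 54 genes described here encode enzymes, and partner subunits of enzymes, that chemically modify tRNA after transcription. They were taken by symbol from a list of names, and all 54 were found among the 20474 annotated genes of the deposited tables. Cells of the human colorectal cancer line HCT116 were transfected with an siRNA against POU2F1 (siPOU2F1, labelled as POU2F1 knockdown, 3 libraries) or with a non-targeting siRNA (sicontrol, labelled WT, 3 libraries), and RNA was taken 48 h later. POU2F1 encodes the octamer-binding transcription factor OCT1, and the comparison asks which transcripts differ once it has been lowered; the wider study is on fragments cut from tRNA. Both groups are the same line, both received an siRNA, and no siRNA sequence was at hand. The labels do not state whether each library had its own culture, and the spread behind each p-value may be technical. In bulk RNA, less of an mRNA per cell and fewer cells holding it cannot be told apart.

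Transfer RNA is among the most heavily modified RNA in the cell. Modifications in the anticodon loop tune which codons are read and keep the reading frame, whereas those in the body of the molecule stabilise its fold and its lifetime. Some marks, such as cytosine methylation by NSUN2 and TRDMT1, are known to protect tRNA from cleavage into fragments. The libraries were made from polyadenylated RNA, so they measured the mRNA of the enzymes and neither tRNA nor its modifications.

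Levels are given as FPKM, sequenced fragments scaled to transcript length and to the size of the library, so that levels of different genes can be set side by side. A difference is the log2 fold change on the log2(FPKM + 0.5) scale, siPOU2F1 minus sicontrol, and this scale understates the change of genes with low values. A gene was called when its p-value from limma, adjusted by the Benjamini-Hochberg method over the 11831 genes averaging 1 FPKM or more across the 6 libraries, was under 0.05. Of the 54 enzymes, 53 passed that filter, and ADAT3 did not.

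POU2F1 itself measured 1.87, 1.69 and 1.73 FPKM in siPOU2F1 replicates 1 to 3, against 4.16, 3.60 and 4.26 FPKM in sicontrol replicates 1 to 3. It fell in every siPOU2F1 library, to 44.0% of the sicontrol mean (log2 fold change -0.99, SE 0.14, limma adjusted p = 0.0333). A permutation test on POU2F1 alone, exact and two-sided, gave p = 0.1, which is the lowest value this design can reach. The call held without siPOU2F1 replicate 3 (adjusted p = 0.00982) and was lost when any other library was left out (adjusted p from 0.114 to 0.22). The library of siPOU2F1 replicate 3 stood apart from the other siPOU2F1 libraries. Across the tested genes, which are not replicates, siPOU2F1 replicates 1 and 2 had an r of 0.989 with each other. The r of siPOU2F1 replicate 3 was 0.946 and 0.948 with them, and 0.969, 0.977 and 0.966 with sicontrol replicates 1 to 3. The POU2F1 level of siPOU2F1 replicate 3 was as low as in the other siPOU2F1 libraries. Where a gene named with values was called without this library but not with it, that is given beside it. The library was singled out from these same expression values, and without it 25.0% of all tested genes were called. None of the enzymes was called when any other single library was left out. Calls without siPOU2F1 replicate 3 are therefore a description and add no support. All 7 epithelial markers averaged at least 1 FPKM, with EPCAM at 210 to 223 FPKM in siPOU2F1 and 204 to 218 FPKM in sicontrol. Their summed level was 3740 to 5166 FPKM in siPOU2F1 and 2705 to 3627 FPKM in sicontrol. Most of that sum was KRT18 and KRT8, which averaged 2023 and 1684 FPKM in siPOU2F1 and 1373 and 857 FPKM in sicontrol. Of the epithelial markers only KRT18 was without overlap between the groups. What part these levels have in the results below was not tested. Of 5 markers of leukocytes, fibroblasts and endothelium, 1 averaged at least 1 FPKM (COL1A1), PTPRC was listed at 0 in every library, and their summed level was 1.72 to 3.70 FPKM in siPOU2F1 and 2.18 to 2.81 FPKM in sicontrol.

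TRUB1, which converts a uridine of the tRNA T loop to pseudouridine, was the 1 enzyme of the 53 that was called. It was lower in siPOU2F1 cells, at 48.0% of the sicontrol mean. No enzyme was called higher, although 7 had an unadjusted p under 0.05 with a positive fold change and 8 with a negative one, TRUB1 among them (28.3% of the 53, against 18.1% of all tested genes). The isopentenyltransferase TRIT1 and the histidine tRNA guanylyltransferase THG1L had the next lowest p-values and were also lower in all 3 siPOU2F1 libraries, but neither passed the threshold. Over all tested genes 0.845% were called lower and 0.397% higher, and 1 called enzyme of 53 is near that background. Of the 53 fold changes 25 were positive and 28 negative, where 48.5% of all tested genes were positive. The 53 had a median of -0.10, against -0.01 for all tested genes. The median was 0.09 without siPOU2F1 replicate 1 and -0.21 without replicate 3, so its direction rested on siPOU2F1 replicate 1.

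TRUB1 (ENSG00000165832; chromosome 10, 114938193 to 114977676, plus strand, GRCh38) measured 5.59, 5.35 and 8.15 FPKM in siPOU2F1 replicates 1 to 3, against 13.7, 13.7 and 12.3 FPKM in sicontrol replicates 1 to 3. The groups did not overlap, and siPOU2F1 replicate 3 was the highest of its group. The mean was 6.36 ± 1.55 FPKM in siPOU2F1 and 13.3 ± 0.809 FPKM in sicontrol (SD, n = 3 each; log2 fold change -1.02, SE 0.17, limma adjusted p = 0.0493). This p lies just under the threshold, and the call rested on 5 of the 6 libraries. Without siPOU2F1 replicate 1 or 2, or sicontrol replicate 1, 2 or 3, the adjusted p was between 0.127 and 0.266, with fold changes from -1.07 to -0.92. Without siPOU2F1 replicate 3 it was -1.20 (adjusted p = 0.00463). The call was also lost with a pseudocount of 0.1 (adjusted p = 0.0504), a filter at 0.5 FPKM (0.0532), no filter (0.0899) or no mean-variance trend (0.0594).

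TRIT1 (chromosome 1, 39838110 to 39883511, minus strand) adds an isopentenyl group to an adenosine beside the anticodon of cytosolic and mitochondrial tRNA. It measured 15.8, 14.2 and 17.2 FPKM in siPOU2F1 replicates 1 to 3, against 25.5, 22.9 and 24.3 FPKM in sicontrol replicates 1 to 3. The groups were well separated, at 15.8 ± 1.52 FPKM in siPOU2F1 and 24.2 ± 1.29 FPKM in sicontrol (SD, n = 3 each), with a log2 fold change of -0.61, an SE of 0.11 and a limma adjusted p of 0.0614. It was called with a filter at 5 FPKM, where fewer genes are tested (adjusted p = 0.0486), and without siPOU2F1 replicate 3 (adjusted p = 0.011). With any other library left out it was not called (adjusted p from 0.15 to 0.294). The same held without a filter (adjusted p = 0.0794) and without the mean-variance trend (0.0787). THG1L (chromosome 5, 157731197 to 157741448, plus strand) adds the extra guanylate at the 5′ end of histidine tRNA. It measured 7.14, 6.98 and 8.85 FPKM in siPOU2F1 replicates 1 to 3, against 11.1, 11.6 and 10.7 FPKM in sicontrol replicates 1 to 3, again without overlap. Its log2 fold change was -0.52 (SE 0.13, limma adjusted p = 0.117), and -0.62 without siPOU2F1 replicate 3 (adjusted p = 0.0129).

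**Figure D1:**
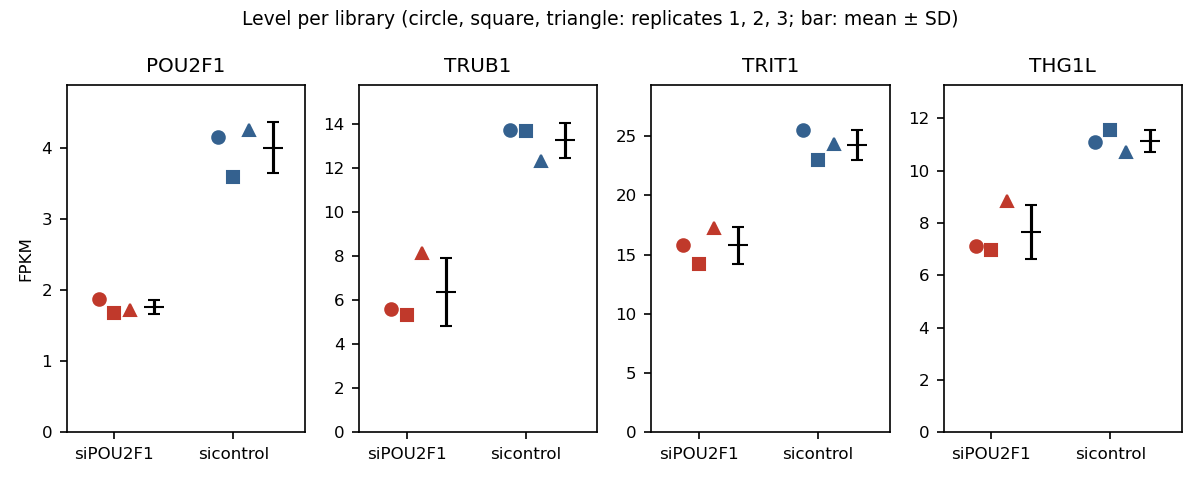
FPKM (vertical axes, linear from 0) of POU2F1, TRUB1, TRIT1 and THG1L in the 3 siPOU2F1 libraries (red) and the 3 sicontrol libraries (blue), with circles, squares and triangles for replicates 1, 2 and 3 and a bar for the mean ± SD. In all 4 genes the siPOU2F1 values lie below the sicontrol values, and siPOU2F1 replicate 3 is the highest siPOU2F1 value for TRUB1 (8.15 FPKM), TRIT1 (17.2 FPKM) and THG1L (8.85 FPKM) but not for POU2F1 (1.73 FPKM).

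Across the 53 tested enzymes, 7 were lower in all siPOU2F1 libraries than in any sicontrol library (13.2%, against a background of 12.0%), and 12 were higher in all (22.6%, against 11.3%). The 7 were TRUB1, TRIT1, THG1L, TRDMT1, NSUN6, FTSJ1 and DUS1L. TRDMT1, also counted above among the enzymes with an unadjusted p under 0.05, passed the filter on low values only through the sicontrol libraries. The 12 were FTO, ALKBH1, PUS3, DUS2, ADAT2, CTU1, CTU2, QTRT1, TYW1, TYW3, TRMT5 and CDKAL1. Of all tested genes 23.4% were without overlap in either direction. The values of siPOU2F1 replicate 3 bear on many of the enzymes. In 39 of the 53 enzymes (73.6%) its value was above both other siPOU2F1 libraries, as in 50.6% of all tested genes. That value lay within the sicontrol range in 16 enzymes (30.2%), against 42.7% of all tested genes. The median deviation of the enzymes from the sicontrol mean was -0.24, -0.07 and 0.22 (log2) in siPOU2F1 replicates 1, 2 and 3. Without siPOU2F1 replicate 3, where siPOU2F1 holds 2 libraries, 17 enzymes were called lower (32.1%, against a background of 15.7%) and 5 higher (9.43%, against 9.29%), with a median fold change of -0.21 over the enzymes and -0.04 over all tested genes. What set that library apart was not tested.

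**Figure D2:**
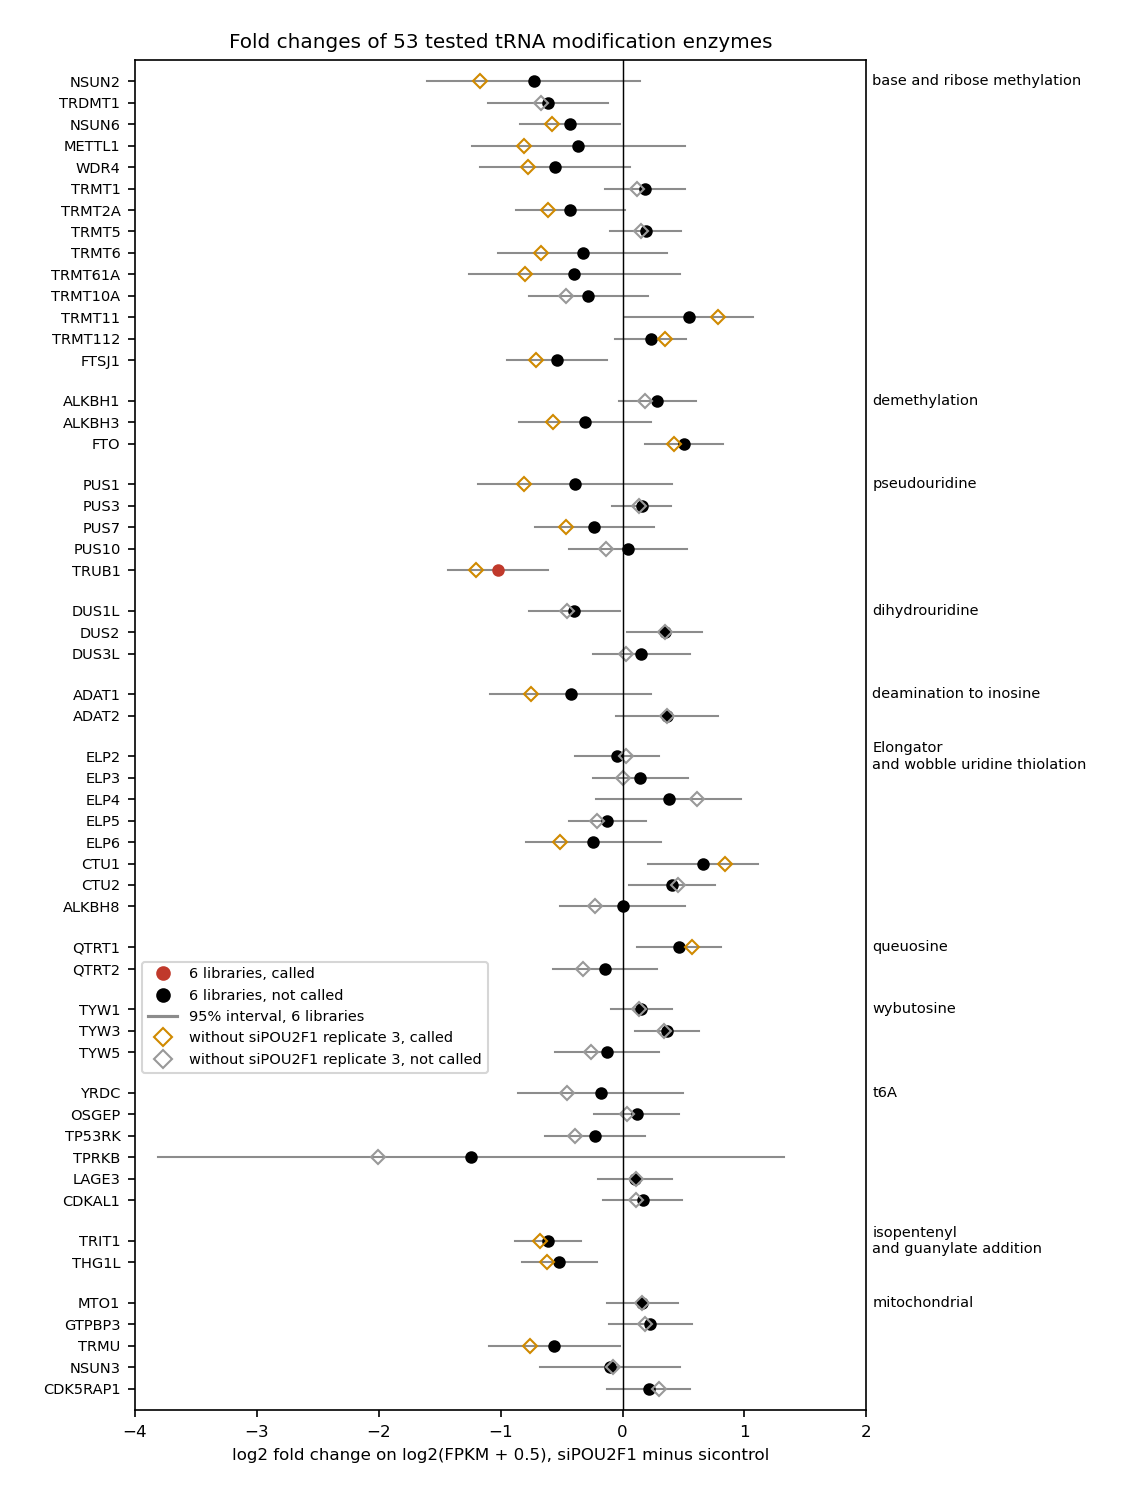
Log2 fold change on log2(FPKM + 0.5), siPOU2F1 minus sicontrol (horizontal axis), of the 53 tested enzymes (rows, by class), with circles and 95% intervals from all 6 libraries and diamonds from the fit without siPOU2F1 replicate 3. TRUB1 is the 1 filled red circle, and the 22 orange diamonds, 17 to the left of 0 and 5 to the right, are the enzymes called without that library.

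Among the 14 genes of base and ribose methylation, 10 had a negative fold change and 4 a positive one, where 48.5% of all tested genes were positive. None was called in either direction. An unadjusted p under 0.05 was found in 4 (28.6%, against 18.1% of all tested genes). That count was 0 without siPOU2F1 replicate 1 and 0 without sicontrol replicate 2. The class median was -0.38, or -0.64 without siPOU2F1 replicate 3, and between -0.45 and -0.19 when any other library was left out. The members with the lowest p were FTSJ1, which methylates riboses of the anticodon loop, and TRDMT1, a cytosine methyltransferase of the anticodon loop. FTSJ1 measured 48.7, 52.0 and 72.9 FPKM in siPOU2F1 replicates 1 to 3, against 83.6, 92.7 and 73.3 FPKM in sicontrol replicates 1 to 3. The groups were separated by less than 1 FPKM between the 2 libraries numbered 3, and the fold change was -0.54 (SE 0.17, limma adjusted p = 0.184), or -0.71 without siPOU2F1 replicate 3 (adjusted p = 0.0125). TRDMT1 was low throughout, at 0.604, 0.798 and 0.855 FPKM in siPOU2F1 replicates 1 to 3, against 1.76, 1.43 and 1.08 FPKM in sicontrol replicates 1 to 3. Its fold change was -0.61 (SE 0.21, limma adjusted p = 0.201), and it passed the filter on low values only through the sicontrol libraries.

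In NSUN2, METTL1, WDR4, TRMT2A, TRMT61A, TRMT6 and TRMT10A, siPOU2F1 replicates 1 and 2 lay below every sicontrol library and replicate 3 did not. Without siPOU2F1 replicate 3, 10 of the 14 genes of base and ribose methylation were lower without overlap (71.4%, against 35.0% of all tested genes). With all 6 libraries these shares were 21.4% and 12.0%. NSUN2, the main cytosine methyltransferase of the variable loop, measured 25.5, 23.3 and 61.9 FPKM in siPOU2F1 replicates 1 to 3, against 49.4, 70.6 and 49.0 FPKM in sicontrol replicates 1 to 3. Replicate 3 lay inside the sicontrol range, and the fold change was -0.73 (SE 0.37, limma adjusted p = 0.336) with it and -1.17 (adjusted p = 0.0101) without it. NSUN2 was chosen for values by library after they had been seen. METTL1, the methyltransferase that makes 7-methylguanosine, and its partner WDR4 averaged 8.63 and 6.77 FPKM in siPOU2F1 and 10.1 and 10.1 FPKM in sicontrol. The METTL1 to WDR4 ratio was 1.22 ± 0.405 in siPOU2F1 and 1.02 ± 0.0905 in sicontrol (SD, n = 3 each), with overlap between the groups. METTL1 shares 19.3% of its exonic bases with EEF1AKMT3 on the opposite strand, which averaged 7.96 FPKM in siPOU2F1 and 6.72 FPKM in sicontrol. TRMT6 and TRMT61A, the pair that methylates an adenosine of the T loop, had fold changes of -0.33 and -0.40 (limma adjusted p = 0.551 and 0.563). Their ratio, TRMT61A to TRMT6, was 0.647 ± 0.064 in siPOU2F1 and 0.687 ± 0.1 in sicontrol (SD, n = 3 each), again with overlap. Without siPOU2F1 replicate 3 METTL1, WDR4, TRMT6, TRMT61A, TRMT2A (the T-loop uridine methyltransferase) and NSUN6 (a cytosine methyltransferase of the acceptor stem) were all called lower, with fold changes from -0.81 to -0.58. TRMT2A averaged 5.83 FPKM in siPOU2F1 and 7.90 FPKM in sicontrol. It shares 9.92% of its exonic bases with RANBP1 on the opposite strand, which averaged 90.0 FPKM in siPOU2F1 and 104 FPKM in sicontrol.

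TRMT11 and TRMT112 had positive fold changes. TRMT11, a guanosine methyltransferase of the tRNA body, averaged 16.2 FPKM in siPOU2F1 and 10.7 FPKM in sicontrol, with a fold change of 0.55 (limma adjusted p = 0.262), or 0.78 without siPOU2F1 replicate 3 (adjusted p = 0.0144). TRMT112, the small activating subunit that TRMT11 and several other methyltransferases need, had the highest mean of the list over the 6 libraries, although FTSJ1 was higher in the sicontrol mean (83.2 FPKM, against 81.9 FPKM for TRMT112). It measured 105, 104 and 81.3 FPKM in siPOU2F1 replicates 1 to 3, against 80.7, 82.4 and 82.6 FPKM in sicontrol replicates 1 to 3. Replicate 3 of siPOU2F1 was at the sicontrol level, and the fold change was 0.23 (SE 0.12, limma adjusted p = 0.349), or 0.35 without siPOU2F1 replicate 3 (adjusted p = 0.0266). TRMT112 shares 17.5% of its exonic bases with ESRRA on the opposite strand, which averaged 32.0 FPKM in siPOU2F1 and 33.0 FPKM in sicontrol. The strand setting of the counting was not at hand, so reads of such antisense partners cannot be told apart, here and for the other partners named. TRMT1 and TRMT5, which methylate guanosines at the junction of the stems and beside the anticodon, had fold changes of 0.19 each, and TRMT10A, a guanosine methyltransferase near the acceptor stem, had -0.28.

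TRMT112 was also the 1 of 46 enzymes with a RefSeq promoter sequence (250 bases before to 50 after a gene start, GRCh38.p14) that held the octamer ATGCAAAT, the sequence POU2F1 is known to bind, on either strand. Over all genes with such a sequence 2.19% held it, and 1.80% of the tested ones did. The matches, shown because POU2F1 is the factor that was lowered, read ATTTGCAT on the minus strand from which the gene is transcribed, with the octamer in capitals and the flanking bases in lower case. With these flanking bases, the printed sequences span chr11:64317960-64317987 and chr11:64317776-64317803, in the windows of 2 annotated gene starts. Counted from its own gene start, the octamer begins at position 13 for the upper start and at -234 for the lower start. Both spans lie inside the annotated TRMT112 gene (64316460 to 64318084), so neither is upstream of the whole gene.
TRMT112 upper start: ggagcagctaATTTGCATataggaatga
TRMT112 lower start: tttgcatatgATTTGCATcttacgaaga
A match is a string in a window and not a site shown to be bound, and windows without one say nothing of POU2F1 elsewhere.

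The demethylases had mixed fold changes. FTO, which removes methyl groups from adenosine in several kinds of RNA, measured 5.0, 4.80 and 5.94 FPKM in siPOU2F1 replicates 1 to 3, against 3.46, 3.60 and 3.55 FPKM in sicontrol replicates 1 to 3. All siPOU2F1 values were above the narrow sicontrol range (log2 fold change 0.50, SE 0.14, limma adjusted p = 0.133), and it was called without siPOU2F1 replicate 3 (adjusted p = 0.0476). ALKBH1, an adenosine demethylase that also acts on the wobble cytosine of a mitochondrial tRNA, measured 10.0, 10.7 and 12.9 FPKM in siPOU2F1 replicates 1 to 3, against 9.35, 9.43 and 8.39 FPKM in sicontrol replicates 1 to 3, without overlap. Its fold change was 0.28 (SE 0.13, limma adjusted p = 0.312). ALKBH3, a repair demethylase that also acts on tRNA, had -0.31 (limma adjusted p = 0.482), with its siPOU2F1 values at 19.2, 19.8 and 34.0 FPKM, against 29.4, 32.8 and 25.8 FPKM in sicontrol. It was called without siPOU2F1 replicate 3 (-0.57, adjusted p = 0.0225).

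**Figure D3:**
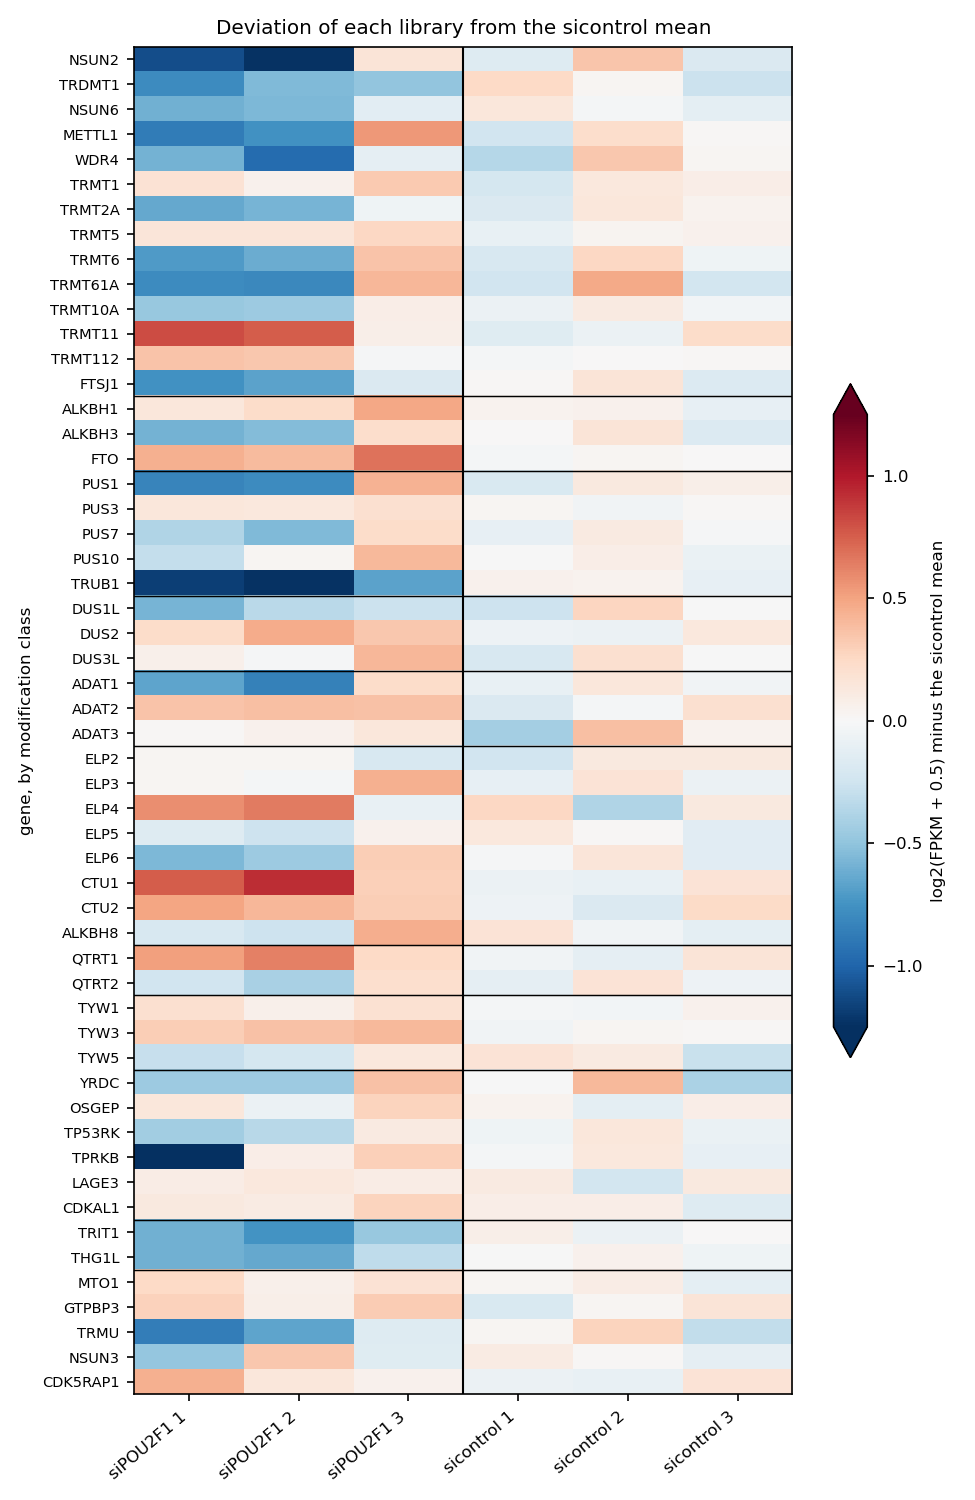
Deviation of log2(FPKM + 0.5) in each library from the sicontrol mean of the gene (colour, red above and blue below), for the 54 enzymes (rows, lines between classes) in siPOU2F1 replicates 1 to 3 (left) and sicontrol replicates 1 to 3 (right). The column of siPOU2F1 replicate 3 is above both other siPOU2F1 columns in 39 of the 53 tested enzymes, while TRUB1, TRIT1 and THG1L are blue in all 3 siPOU2F1 columns.

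Besides TRUB1, the pseudouridine synthases were PUS1, PUS3, PUS7 and PUS10, and none of these 4 was called. PUS3, which acts on the anticodon stem and loop, measured 11.1, 11 and 11.5 FPKM in siPOU2F1 replicates 1 to 3, against 10.2, 9.69 and 10.1 FPKM in sicontrol replicates 1 to 3. The groups did not overlap, but the difference was small (log2 fold change 0.16, SE 0.10, limma adjusted p = 0.421). PUS1, which works in both the nucleus and mitochondria, and PUS7, which also modifies mRNA, had -0.39 and -0.23 with all libraries (adjusted p = 0.533 and 0.548). Without siPOU2F1 replicate 3 they had -0.81 and -0.46 and were called (adjusted p = 0.0124 and 0.0308). PUS10, which modifies the T arm as TRUB1 does, had 0.05, with a 95% interval from -0.44 to 0.53. TRUB2, the mitochondrial paralog of TRUB1 from the list of other tRNA modification genes, had 0.12 (limma adjusted p = 0.791) with an interval from -0.44 to 0.69, where that of TRUB1 ran from -1.44 to -0.61; the difference between the paralogs was not tested.

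The dihydrouridine synthases, which reduce uridines mostly in the D loop, did not share a direction. DUS1L measured 41.3, 48.9 and 51.1 FPKM in siPOU2F1 replicates 1 to 3, against 51.5, 74.6 and 61.7 FPKM in sicontrol replicates 1 to 3 (log2 fold change -0.40, SE 0.16, limma adjusted p = 0.254). DUS2 measured 6.37, 7.57 and 6.89 FPKM in siPOU2F1 replicates 1 to 3, against 5.10, 5.07 and 5.90 FPKM in sicontrol replicates 1 to 3 (0.35, SE 0.13, limma adjusted p = 0.235). Both were without overlap, DUS1L lower by a margin of under 1 FPKM and DUS2 higher. DUS2 shares 10.9% of its exonic bases with DDX28 on the opposite strand, which averaged 2.57 FPKM in siPOU2F1 and 3.04 FPKM in sicontrol, and DUS3L had 0.15 (limma adjusted p = 0.62).

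The deaminases make inosine from adenosine, ADAT1 beside the anticodon of alanine tRNA and the ADAT2 and ADAT3 pair at the wobble position. ADAT1 measured 3.79, 3.26 and 7.41 FPKM in siPOU2F1 replicates 1 to 3, against 5.83, 6.96 and 6.03 FPKM in sicontrol replicates 1 to 3. With 1 siPOU2F1 library above every sicontrol library and 2 below, the fold change was -0.42 (SE 0.28, limma adjusted p = 0.43), or -0.75 without siPOU2F1 replicate 3 (adjusted p = 0.0156). ADAT2 measured 1.42, 1.46 and 1.44 FPKM in siPOU2F1 replicates 1 to 3, against 0.832, 0.980 and 1.24 FPKM in sicontrol replicates 1 to 3, without overlap (0.37, SE 0.18, limma adjusted p = 0.324). ADAT3, with the lowest mean of the 54 over the 6 libraries (TRDMT1 was lower in siPOU2F1), measured 0.796, 0.833 and 0.913 FPKM in siPOU2F1 replicates 1 to 3, against 0.455, 1.17 and 0.829 FPKM in sicontrol replicates 1 to 3, and was not tested. ADAT3 shares 35.4% of its exonic bases with SCAMP4 on the same strand, which averaged 16.4 FPKM in siPOU2F1 and 19.5 FPKM in sicontrol, so the assignment of its reads is uncertain.

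Elongator starts the side chain of wobble uridines, ALKBH8 completes it by methylation, and CTU1 with CTU2 exchange an oxygen of the base for sulfur. The Elongator subunits ELP2 to ELP6 had fold changes between -0.24 (ELP6) and 0.38 (ELP4), with limma adjusted p from 0.433 to 0.873, and of these ELP6 was called without siPOU2F1 replicate 3 (-0.51, adjusted p = 0.0284). The catalytic subunit ELP3 had 0.15, with a 95% interval from -0.24 to 0.54. The thiolation pair was higher in every siPOU2F1 library without passing the test. CTU1 measured 7.10, 7.98 and 5.02 FPKM in siPOU2F1 replicates 1 to 3, against 3.76, 3.70 and 4.54 FPKM in sicontrol replicates 1 to 3 (log2 fold change 0.66, SE 0.19, limma adjusted p = 0.154). Without siPOU2F1 replicate 3 it was called, at 0.84 (adjusted p = 0.0125). CTU2 measured 8.19, 7.70 and 7.14 FPKM in siPOU2F1 replicates 1 to 3, against 5.42, 4.94 and 6.78 FPKM in sicontrol replicates 1 to 3 (0.41, SE 0.15, limma adjusted p = 0.225). The CTU1 to CTU2 ratio was 0.868 ± 0.166 in siPOU2F1 and 0.704 ± 0.041 in sicontrol (SD, n = 3 each), with overlap. ELP4 shares 19.2% of its exonic bases with PAX6 on the opposite strand, which averaged 18.0 FPKM in siPOU2F1 and 14 FPKM in sicontrol, and ALKBH8 had 0.00 with an interval from -0.51 to 0.52.

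QTRT1, the catalytic subunit of the transglycosylase that puts queuine into the wobble position, measured 10.9, 11.8 and 8.95 FPKM in siPOU2F1 replicates 1 to 3, against 7.20, 6.89 and 8.38 FPKM in sicontrol replicates 1 to 3. It was higher without overlap (log2 fold change 0.46, SE 0.15, limma adjusted p = 0.177), and was called without siPOU2F1 replicate 3 (0.57, adjusted p = 0.0242). Its partner QTRT2 measured 12.8, 11.4 and 17.7 FPKM in siPOU2F1 replicates 1 to 3, against 14, 17.2 and 14.6 FPKM in sicontrol replicates 1 to 3, with overlap (-0.14, SE 0.18, limma adjusted p = 0.675). The QTRT1 to QTRT2 ratio was 0.852, 1.04 and 0.506 in siPOU2F1 replicates 1 to 3, against 0.514, 0.401 and 0.576 in sicontrol replicates 1 to 3. The ratio was above the sicontrol range in siPOU2F1 replicates 1 and 2 and within it in replicate 3.

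Wybutosine is a bulky guanosine derivative beside the anticodon of phenylalanine tRNA, and TYW1 and TYW3 catalyse steps of its synthesis. TYW3 measured 7.49, 7.81 and 8.04 FPKM in siPOU2F1 replicates 1 to 3, against 5.76, 6.04 and 6.01 FPKM in sicontrol replicates 1 to 3. The spread within each group was small, and the siPOU2F1 libraries were all higher (log2 fold change 0.36, SE 0.11, limma adjusted p = 0.166). TYW1 measured 12.8, 11.6 and 12.7 FPKM in siPOU2F1 replicates 1 to 3, against 10.9, 10.8 and 11.5 FPKM in sicontrol replicates 1 to 3, also without overlap (0.15, SE 0.11, limma adjusted p = 0.449). TYW3 shares 5.57% of its exonic bases with CRYZ on the opposite strand, which averaged 31.9 FPKM in siPOU2F1 and 19.2 FPKM in sicontrol. TYW1 shares 5.35% with SBDS on the opposite strand, which averaged 127 FPKM in siPOU2F1 and 104 FPKM in sicontrol. The part of these partners in the TYW3 and TYW1 values was not tested. TYW5, the hydroxylase of the pathway, had -0.13 (limma adjusted p = 0.708).

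The genes for N6-threonylcarbamoyladenosine (t6A), a mark of tRNAs that read codons starting with A, comprise YRDC, which makes the activated intermediate, and OSGEP, TP53RK, TPRKB and LAGE3 of the KEOPS complex, with CDKAL1 adding a methylthio group afterwards. None of the 6 had an unadjusted p under 0.05. TP53RK measured 6.12, 6.52 and 9.16 FPKM in siPOU2F1 replicates 1 to 3, against 8.10, 9.36 and 7.96 FPKM in sicontrol replicates 1 to 3 (log2 fold change -0.23, SE 0.17, limma adjusted p = 0.493). CDKAL1 measured 5.31, 5.23 and 5.98 FPKM in siPOU2F1 replicates 1 to 3, against 5.15, 5.17 and 4.28 FPKM in sicontrol replicates 1 to 3 (0.17, SE 0.14, limma adjusted p = 0.518). TP53RK overlapped between groups, and CDKAL1 was higher in siPOU2F1 by a narrow margin. TPRKB, named after its values were seen, was at 0.736 FPKM in siPOU2F1 replicate 1, and at 22.1 and 25.6 FPKM in siPOU2F1 replicates 2 and 3, against 20.4, 22.7 and 19.3 FPKM in sicontrol replicates 1 to 3. A single library thus set its fold change of -1.24 (SE 1.09, limma adjusted p = 0.541), which was 0.19 without siPOU2F1 replicate 1. The OSGEP to TP53RK ratio was 0.641 ± 0.104 in siPOU2F1 and 0.497 ± 0.0815 in sicontrol (SD, n = 3 each), the 1 of 8 partner ratios without overlap, and its lowest siPOU2F1 value of 0.561 lay just above the highest sicontrol value of 0.555. YRDC, OSGEP and LAGE3 had -0.18, 0.12 and 0.10, and YRDC shares 27.9% of its exonic bases with C1orf122 on the opposite strand.

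A further 5 enzymes were classed as mitochondrial, apart from those above that also act on mitochondrial tRNA. Of these, 3 had positive and 2 negative fold changes, and none was called. TRMU, which puts sulfur on mitochondrial wobble uridines, measured 6.74, 7.81 and 11.3 FPKM in siPOU2F1 replicates 1 to 3, against 12.9, 15.5 and 10.2 FPKM in sicontrol replicates 1 to 3. Its groups overlapped through the libraries numbered 3 (log2 fold change -0.56, SE 0.23, limma adjusted p = 0.258), and it was called without siPOU2F1 replicate 3 (-0.76, adjusted p = 0.03). GTPBP3, which with MTO1 builds the taurine-containing side chain of the same uridines, measured 8.02, 6.83 and 8.20 FPKM in siPOU2F1 replicates 1 to 3, against 5.61, 6.60 and 7.28 FPKM in sicontrol replicates 1 to 3 (0.23, SE 0.14, limma adjusted p = 0.41), with overlap. MTO1 had 0.16, and the methylthiotransferase CDK5RAP1 had 0.21 (limma adjusted p = 0.486 and 0.438). NSUN3, which methylates the wobble cytosine of mitochondrial methionine tRNA, was low, at 1.24 ± 0.507 FPKM in siPOU2F1 and 1.32 ± 0.134 FPKM in sicontrol (SD, n = 3 each), with a fold change of -0.10.

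**Figure D4:**
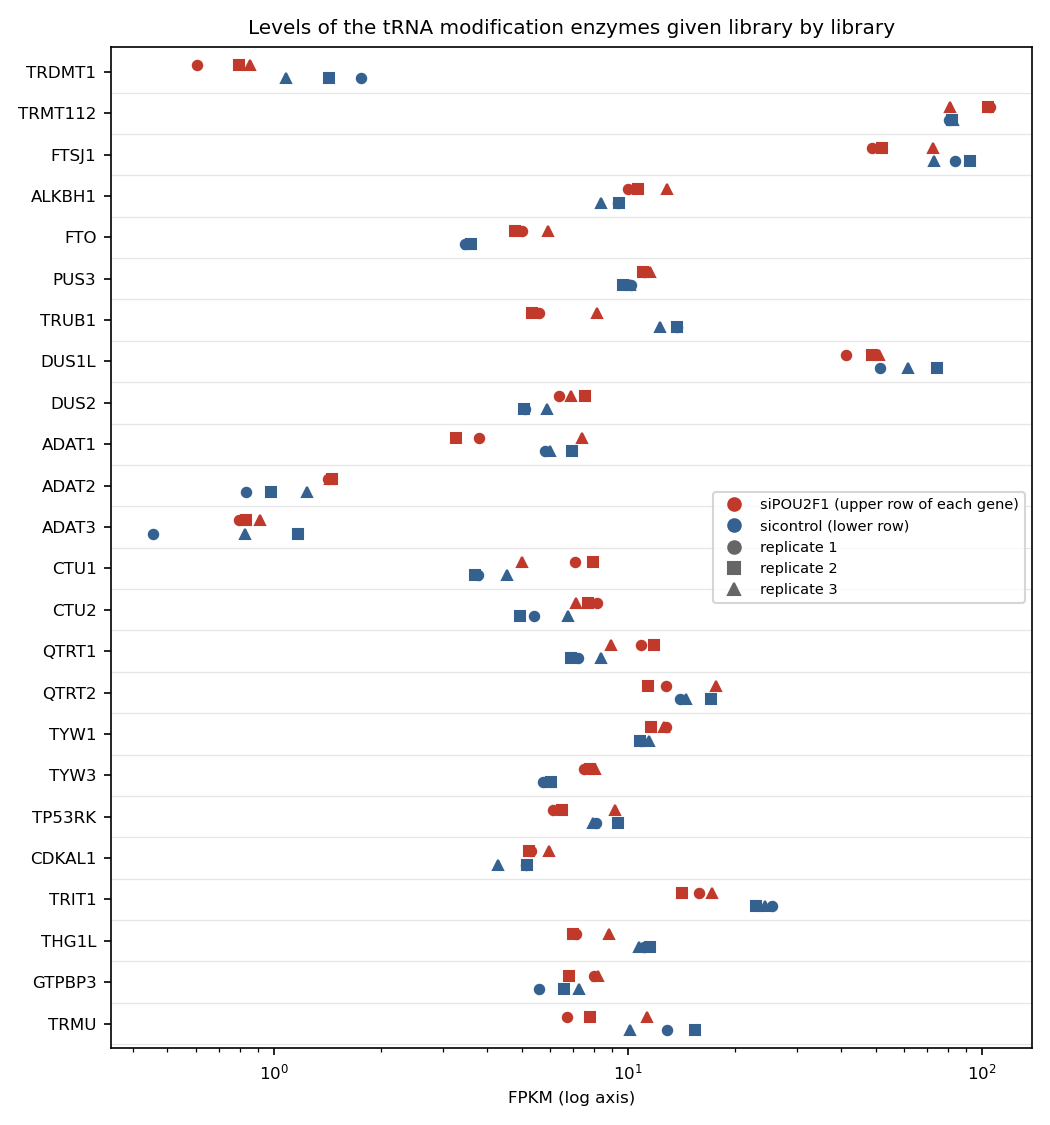
FPKM (horizontal log axis) of the 24 enzymes whose values are given library by library under the naming rule, with the 3 siPOU2F1 libraries (red, upper row of each gene) above the 3 sicontrol libraries (blue), and circles, squares and triangles for replicates 1, 2 and 3. Levels run from under 1 FPKM for ADAT3 to over 80 FPKM for TRMT112, and the red triangle of siPOU2F1 replicate 3 lies nearer to the blue symbols than the other red symbols in FTSJ1, ADAT1, CTU1, QTRT1 and TRMU.

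Earlier work on these libraries had picked a pair of 7-base words, AACTGCA and AGAATGA, as more frequent in the 3′ UTRs of genes that fell, so their presence is given here as a description with no test. Of the 51 tested enzymes with a 3′ UTR of at least 20 bases in GENCODE 29, 8 held either word (15.7%), against 23.5% of 11518 tested genes. AACTGCA was in 5 and AGAATGA in 5, with ADAT2 and TYW5 holding both. Among the enzymes with the lowest p, TRUB1 and THG1L held 1 copy of AGAATGA each and TRIT1 held neither word. TRMT6 held 2 copies of AACTGCA, with a fold change of -0.33 that was not called. Among the other holders ADAT2 had 0.37, TRMT5 0.19, OSGEP 0.12, NSUN3 -0.10 and TYW5 -0.13, so the 8 holders had fold changes of both signs. The matches of TRUB1, the called enzyme, of THG1L, and of TRMT6, which holds 2 copies, are printed as examples. These genes had the lowest fold changes of the 8 holders. The matches of the other holders, ADAT2 and TYW5 with both words among them, are not printed. Capitals mark the word, lower case the 10 bases on each side, and positions are those of the word on GRCh38, read on the strand of the gene.
TRUB1, chr10:114975438-114975444, plus strand: gtgcagatgcAGAATGAcaagctgcat
THG1L, chr5:157739773-157739779, plus strand: catgccttggAGAATGAatcattttta
TRMT6, chr20:5938344-5938350, minus strand: ggtctgtcaaAACTGCAaccatggggt
TRMT6, chr20:5938314-5938320, minus strand: tagtatgaccAACTGCAtttaacaaaa

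A further 49 genes of tRNA modification that are not among the 54 (partner subunits, paralogs and enzymes of other positions) were examined in the same fit, and 47 were tested. None was called (limma; 5 with a negative and 8 with a positive fold change had an unadjusted p under 0.05, 27.7% against 18.1% of all tested genes). Their median fold change was -0.10, and between -0.22 and 0.01 with 1 library left out. The 3 with the lowest p included partners of the enzymes above. THUMPD3, a guanosine methyltransferase that works with TRMT112, measured 9.11, 8.67 and 10.9 FPKM in siPOU2F1 replicates 1 to 3, against 13.2, 13.9 and 13.2 FPKM in sicontrol replicates 1 to 3 (-0.47, SE 0.12, limma adjusted p = 0.126; 0.0144 without siPOU2F1 replicate 3). NFS1, the cysteine desulfurase that supplies sulfur for thiolation, measured 19.4, 20.4 and 12.7 FPKM in siPOU2F1 replicates 1 to 3, against 10.2, 5.96 and 10.8 FPKM in sicontrol replicates 1 to 3 (0.94, SE 0.27, limma adjusted p = 0.151; 0.0221 without siPOU2F1 replicate 3). TRMT1L, a paralog of TRMT1, averaged 7.46 ± 0.567 FPKM in siPOU2F1 and 5.17 ± 0.759 FPKM in sicontrol (SD, n = 3 each; 0.49, limma adjusted p = 0.156; 0.0408 without siPOU2F1 replicate 3). In these 3 genes the groups did not overlap. Without siPOU2F1 replicate 3, 15 of the 47 were called lower and 4 higher (31.9% and 8.51%, against 15.7% and 9.29% of all tested genes).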

How the data were processed

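PolyA RNA of 6 libraries (3 siPOU2F1, 3 sicontrol; 2 µg of total RNA each) had been sequenced after a directional library kit, per the labels' protocols. The authors deposited FPKM values, 1 table per library with 22782 features. Per the submitters' processing notes StringTie 2.1.2, Bowtie2 2.2.5 and HISAT2 2.0.4 were used with hg38, in roles, with an annotation and with a strand setting that were not at hand. Absolute depth is unknown. Low values sharing 1 common ratio put depth, relative to sicontrol replicate 1, at roughly 0.778, 0.972 and 0.940 for siPOU2F1 replicates 1 to 3. The values for sicontrol replicates 2 and 3 were 0.930 and 0.902. Each rests on 7 to 13 genes at the commonest ratio, among 175 to 256 low genes compared, so these depths are rough estimates.

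Annotated genes averaging 1 FPKM or more were fitted as log2(FPKM + 0.5) with limma 3.58.1 in R 4.3.3, without further scaling. The model held the group alone, with a mean-variance trend and Benjamini-Hochberg adjustment over 11831 genes. The fit was tested on simulated data in which libraries were independent and shared 1 spread per gene. That simulation therefore did not cover a library set apart, such as siPOU2F1 replicate 3. Members, lists and tests were chosen with earlier results of these data known. Values are given library by library for POU2F1, called members, the 4 next lowest p, the 2 lowest p of each class, and the highest and lowest member; genes outside this rule were chosen after their values were seen. Of the further list the 3 lowest p are given; 1 further result is not reported here. Alternatives were other pseudocounts, filters and scalings, no trend, library weights, the replicate number as a block, and each library left out, on the same genes. Gene positions, overlaps and 3′ UTRs (transcript with the longest coding sequence) came from GENCODE 29 on GRCh38, the build named hg38, and promoters from RefSeq. Tables were handled in Python 3.11.15 (matplotlib 3.10.9, scipy 1.17.1).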

Additional observations from a re-analysis of the deposited data

How the results depend on the processing

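The count of enzymes called lower, 1 with all libraries, was 0 with a pseudocount of 0.1, with a filter at 0.5 FPKM, without a filter and without the mean-variance trend, and 2 with a filter at 5 FPKM. With library weights, which gave siPOU2F1 replicate 3 a weight of 0.145, 24 of the 53 tested enzymes were called lower and 10 higher. In that setting 20 and 12 of the 47 tested other tRNA modification genes were called, and 3312 and 2651 of all 11831 tested genes. Calls were thus common over all tested genes with library weights. Over all tested genes 100 were called lower and 47 higher with all libraries, 48 and 24 without a filter, and 23 higher without the trend. POU2F1 had -0.99 without a filter, no longer called (adjusted p = 0.065). Leaving out 1 library at a time gave 0 to 17 enzymes called lower and 0 to 5 higher, 0 to 15 and 0 to 4 of the other tRNA modification genes, 0 to 1855 and 0 to 1099 of all tested genes, 7 to 25 enzymes lower and 12 to 16 higher without overlap, and -1.06 to -0.95 for POU2F1; the highest counts were without siPOU2F1 replicate 3, except the 16, which was without siPOU2F1 replicate 2. The 25 are 47.2% of the enzymes, against 35.0% of all tested genes in that setting, and the 16 are 30.2%, against 13.0%. The median fold change of the enzymes was -0.21 to 0.09 in these fits, positive without siPOU2F1 replicate 1, and -0.04 after quantile normalization. The cause of these shifts was not tested.

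Same-numbered libraries of the 2 groups deviated from their group means with correlations of 0.133, -0.545 and -0.512 over genes. The highest correlation was 0.643, between siPOU2F1 replicate 3 and sicontrol replicate 2. These values gave no sign that the numbers pair the samples. They cannot exclude it, because deviations from a mean of 3 libraries are tied to each other. With the replicate block 0 enzymes and 0 of all tested genes were called in either direction, and POU2F1 had -0.99 and TRUB1 -1.02 (adjusted p = 0.297 each). Of 429 further fits of the 28 other named genes, 387 kept direction and side of the threshold and 0 reversed; 31 of the 32 that newly passed it were without siPOU2F1 replicate 3 or with library weights. FPKM carry no counts, so how far depth limits the low enzymes (TRDMT1, ADAT2, ADAT3, NSUN3) cannot be stated.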
